A study of Mus musculus with 4 samples.

Results

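The genes described here code for RNA-binding proteins of the Rbm, Srsf and Hnrnp families, measured by poly(A) RNA sequencing in mouse spermatocyte suspensions. Members were taken by symbol: Rbm or Srsf followed by a number and an optional letter, or any symbol that starts with Hnrnp, with Rbm46 left out. This gave 65 of the 24388 gene symbols in the deposited table, with 34 in the Rbm family, 11 in the Srsf family and 20 in the Hnrnp family. The study compared 2 libraries of an Np95 knockout with 2 control libraries, all from C57BL/6 mice labelled as 21 dpc, an abbreviation that the labels do not spell out. Np95 is the protein of the gene Uhrf1, a factor that recruits Dnmt1 to newly replicated DNA so that methylation is copied. The table's column headers call the knockout cKO. The sources used here do not give the driver of the deletion, the deleted part or the alleles of the control animals. The suspensions were made from chopped, enzyme-treated tubules without a described sort, so they can hold other cells of the testis. Nothing says that replicates came from separate animals, and p-values then measure only the spread between these libraries.

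Many proteins of these families act on precursor mRNA. SR proteins, coded by the Srsf genes, carry an RNA recognition motif and a tail rich in serine and arginine, bind exonic enhancers and help the spliceosome to define exons. Proteins of heterogeneous nuclear ribonucleoproteins (hnRNPs), coded by the Hnrnp genes, coat nascent transcripts and often act against exon inclusion, and several also steer mRNA export, stability and translation. Rbm is a naming group for proteins with an RNA-binding motif rather than a family with 1 function, and it holds spliceosome parts, nuclear decay adaptors and tissue-specific splicing regulators. Alternative splicing is extensive in the testis and changes as germ cells pass through meiosis.

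Uhrf1 itself had 1.87 and 1.48 RPKM in the knockout libraries, against 3.11 and 3.29 RPKM in the control libraries, which is 1.91-fold lower (log2 fold change -0.65, SE 0.099, adjusted p = 0.00310 by limma). RPKM is the read number per kilobase of gene, scaled to the size of the library, and a log2 fold change here is the knockout minus the control on the log2(RPKM + 1) scale, which understates changes of low genes. Sycp3, a synaptonemal complex protein that marks spermatocytes, had 30.0 and 26.6 RPKM in the knockout, against 27.1 and 26.9 RPKM in the control. Sycp3 was not called by limma (adjusted p = 0.619), nor with library medians made equal (0.354). It was called higher with RPKM sums made equal (log2 fold change 0.47, adjusted p = 0.00747) and with quantile normalization (0.58, adjusted p = 0.00784). The suspensions also held RNA of other cells, and its level differed between the groups. All 17 tested Sertoli cell markers of 20 in the table were higher in the knockout, with summed levels of 426 and 535 RPKM in the knockout and 142 and 166 RPKM in the control. Leydig cell markers summed to 64.9 and 55.8 RPKM in the knockout and 20.4 and 20.4 RPKM in the control (6 of 7 tested higher), macrophage markers to 16.4 and 12.8 RPKM in the knockout and 5.39 and 6.71 RPKM in the control (5 of 5 higher), and peritubular myoid cell markers to 4.65 and 4.78 RPKM in the knockout and 2.54 and 2.71 RPKM in the control (1 of 1 higher). Of the tested markers 4 of Sertoli cells, 2 of macrophages and 1 of Leydig cells passed the minimum through the knockout alone, so the counts partly follow from the minimum, while the sums cover tested and untested markers. With library medians made equal 17 Sertoli cell, 4 Leydig cell, 4 macrophage and 0 peritubular myoid cell markers were called higher. Quantile normalization gave the same numbers. None of the markers of these somatic cells was at 0 in any library. Germ cell markers moved too. Pachytene markers summed to 801 and 626 RPKM in the knockout and 1786 and 1728 RPKM in the control (13 of 15 tested lower, 1 higher), and spermatid markers to 130.1 and 82.8 RPKM in the knockout and 396 and 387 RPKM in the control (7 of 7 lower). The spermatid markers Prm2 and Catsper1 were at 0 in at least 1 library. Of 14 spermatogonial markers 5 were tested, of which 4 were higher and 1 lower, and all 14 summed to 47.3 and 46.1 RPKM in the knockout and 47.7 and 52.3 RPKM in the control. Id4, the marker that was lower, held much of these sums, with 24.6 and 21.6 RPKM in the knockout, against 39.0 and 41.7 RPKM in the control. Of 11 markers of meiotic entry and early prophase 6 were higher and 1 lower, with sums of 93.9 and 89.6 RPKM in the knockout and 75.3 and 75.8 RPKM in the control. Here too the counts partly follow from the minimum. Of the tested markers 3 of meiotic entry and early prophase and 1 of spermatogonia passed it through the knockout alone. The part of these cell type differences in the results on the RNA-binding proteins was not tested, and in such bulk samples more cells of a type and more RNA per cell cannot be told apart.

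Genes of all 3 families were more often higher than lower in the knockout, except that with library medians made equal more Srsf genes were lower than higher, and most of the changes were moderate. Of the 65 members, 56 reached 1 RPKM in at least 2 of the 4 libraries and were tested, of which 35 rose, 3 fell and 18 were not called by limma at an adjusted p of 0.05. Among all 9099 tested genes 43.3% were higher and 30.5% were lower, 73.8% in all, so most genes of any kind were called in this comparison. In the Rbm family 19 of 26 tested members rose and 2 fell. In the Srsf family 6 of 10 rose and 0 fell, and in the Hnrnp family 10 of 20 rose and 1 fell. The minimum was passed through the knockout alone by 3 Rbm, 0 Srsf and 0 Hnrnp genes, and by 1429 of all tested genes. The Rbm count and the share of all genes that were higher thus partly follow from the minimum. The median log2 fold change was 0.36 in the Rbm family, 0.31 in the Srsf family and 0.28 in the Hnrnp family, against 0.14 over all tested genes. Only 8 of the 35 members that rose had a mean at least 2-fold higher in the knockout, 4 of them Rbm and 4 Hnrnp genes, and 1 of the 3 that fell was at least 2-fold lower. Changes of that size were more common over all tested genes. There, 2214 of 3943 genes with a higher call and 1302 of 2776 with a lower call reached 2-fold. The 2214 include genes that passed the minimum through the knockout alone. The knockout and control values did not overlap for 52 of the 56 tested members, against 89.9% of all tested genes, with 44 members above and 8 below the control values, against 51.8% and 38% of all tested genes. When either control library was left out, fewer members of each family were called higher, and fewer of all tested genes were called. Family medians minus that of all tested genes were then 0.21 (Rbm), 0.21 (Srsf) and 0.19 (Hnrnp) without control replicate 1. Without control replicate 2 they were 0.25, 0.13 and 0.12. The families' order by median and by share was not tested, and it changed with the scaling between libraries, as given further on.

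**Figure D1:**
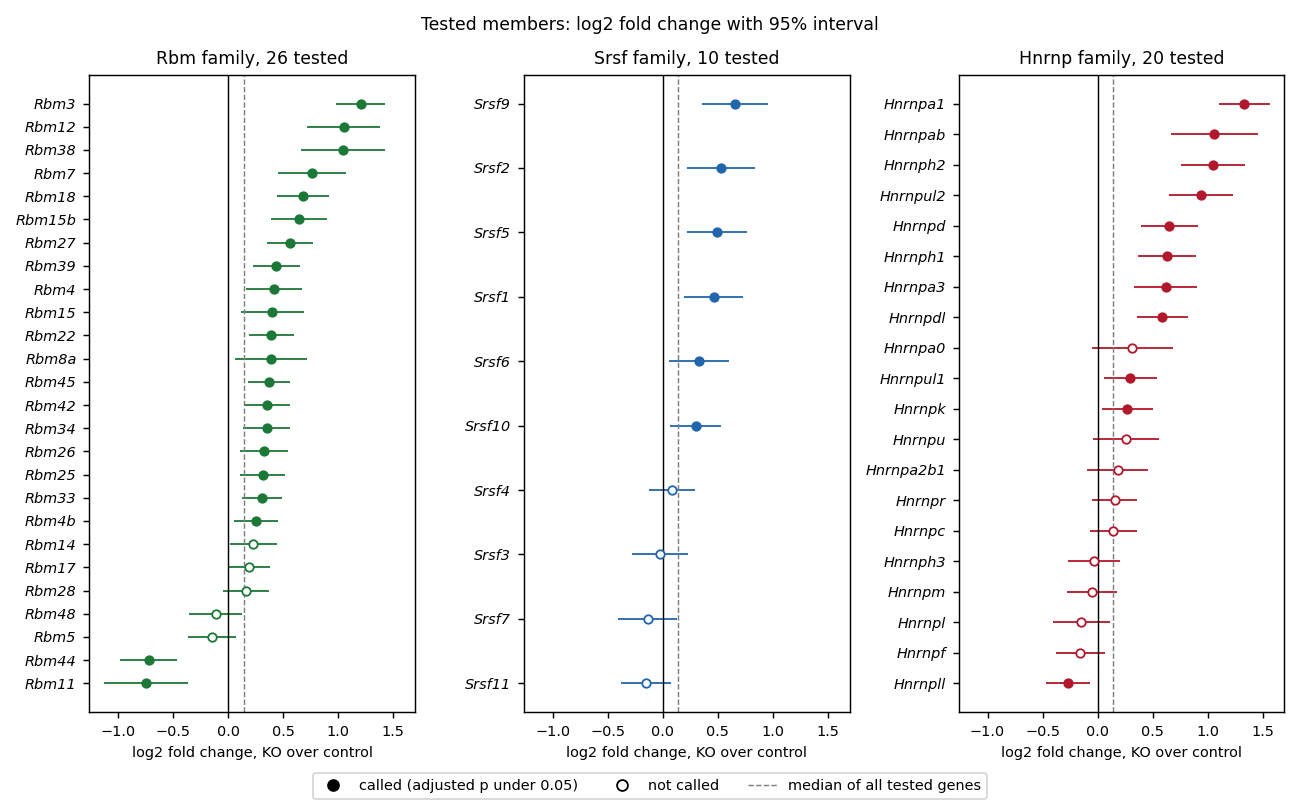
Log2 fold change (knockout over control, log2(RPKM + 1) scale) of the 56 tested members in 3 panels by family, with 95% limma intervals over 2 knockout and 2 control libraries. Filled points were called, open points were not, and the dashed line is the median of all tested genes, 0.14. Hnrnpa1 stands highest at 1.33 and Rbm11 lowest at -0.75.

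The members with the largest called changes in both directions on the log2(RPKM + 1) scale, Hnrnpa1 and Rbm11, and the X-linked Hnrnph2 are shown by the DNA upstream of their start, because the study concerns DNA methylation and CpG dinucleotides are its target in mammals. The sequences are the 250 bases before the RefSeq start on GRCm38.p6, 5′ to 3′ on the gene's strand, with CpG dinucleotides in capitals. Hnrnpa1 lies on the plus strand at chr15:103240147-103240396, Hnrnph2 on the plus strand at chrX:134600929-134601178 and Rbm11 on the plus strand at chr16:75592641-75592890.
Hnrnpa1: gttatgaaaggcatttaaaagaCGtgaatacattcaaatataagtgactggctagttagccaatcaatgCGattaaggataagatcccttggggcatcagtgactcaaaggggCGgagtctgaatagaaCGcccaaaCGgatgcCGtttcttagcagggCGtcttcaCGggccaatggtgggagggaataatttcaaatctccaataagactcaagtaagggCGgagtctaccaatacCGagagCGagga
Hnrnph2: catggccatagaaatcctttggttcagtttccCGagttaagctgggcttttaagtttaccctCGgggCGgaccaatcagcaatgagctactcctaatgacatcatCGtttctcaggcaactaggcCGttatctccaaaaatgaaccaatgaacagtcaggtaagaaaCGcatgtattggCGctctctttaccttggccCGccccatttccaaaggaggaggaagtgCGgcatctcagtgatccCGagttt
Rbm11: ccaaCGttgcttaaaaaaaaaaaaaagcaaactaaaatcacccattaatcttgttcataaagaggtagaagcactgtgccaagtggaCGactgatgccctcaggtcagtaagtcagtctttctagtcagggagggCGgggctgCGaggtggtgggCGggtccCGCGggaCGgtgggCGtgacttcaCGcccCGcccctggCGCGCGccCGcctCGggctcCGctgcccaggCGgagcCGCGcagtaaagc
These windows hold 11 CpG in Hnrnpa1, 10 in Hnrnph2 and 20 in Rbm11. No methylation was measured in these files. Longer RefSeq windows, which also cover the start itself, were matched for 57 of the 65 members. Their median was 25 CpG per window, against 22 over the 6735 tested genes with a window and 7 over all 27025 windows, taking the window listed for a gene in the top row where it had several. The median was 21 in the Rbm, 32 in the Srsf and 29.5 in the Hnrnp family, and 25.5 in 30 members that rose against 27.5 in 18 that were not called. Of the members that fell only Rbm11 was matched, with 25 CpG in the longer window, close to the median of those that rose. The window of Rbm25 held 0 CpG. The E-box letters CACGTG, searched on both strands, were in 6 of the 57 windows (10.5%), against 11.2% of tested genes' windows and 7.24% of all windows. The cyclic AMP response element TGACGTCA was in 0 of 57, against 3.68% of tested genes' windows and 1.88% of all.

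In the Rbm family the 6 largest called rises with a mean of 2 RPKM or more were those of Rbm3, Rbm12, Rbm38, Rbm7, Rbm15b and Rbm27. Rbm3, an X-linked gene for a cold-inducible RNA-binding protein, had 4.34 and 4.50 RPKM in the knockout, against 1.23 and 1.48 RPKM in the control. Its mean was 3.26-fold higher, with a log2 fold change of 1.21 (SE 0.087, adjusted p = 0.00136), and both knockout values were well above both control values. Rbm38, known as a p53 target that binds and stabilizes the mRNA of the cell cycle inhibitor p21, had 4.68 and 6.49 RPKM in the knockout, against 2.09 and 2.25 RPKM in the control, 2.57-fold higher (log2 fold change 1.04, SE 0.15, adjusted p = 0.00261). The 2 knockout libraries differed from each other by more than the 2 control libraries did. Rbm12 had 4.62 and 5.91 RPKM in the knockout, against 2.17 and 1.86 RPKM in the control, 2.61-fold higher (log2 fold change 1.05, SE 0.13, adjusted p = 0.00186). Rbm12 lies within the span of Cpne1 on the same strand, and Cpne1 had 4.04 and 4.80 RPKM in the knockout, against 2.17 and 1.91 RPKM in the control, so reads of the pair may be shared and the value of Rbm12 is uncertain.

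Rbm7, the RNA-binding subunit of the nuclear exosome targeting complex, had 7.67 and 7.72 RPKM in the knockout, against 3.63 and 4.67 RPKM in the control, 1.85-fold higher (log2 fold change 0.76, SE 0.12, adjusted p = 0.00347). Here the control libraries were the ones that lay apart. Rbm15b, which like its paralog Rbm15 brings the m6A methyltransferase complex to RNA, had 12.5 and 13.9 RPKM in the knockout, against 7.75 and 8.48 RPKM in the control, 1.63-fold higher (log2 fold change 0.64, SE 0.099, adjusted p = 0.00338). Its locus is crossed by a transcript annotated to Manf on the same strand, which had 42.7 and 42.3 RPKM in the knockout, against 36.0 and 33.4 RPKM in the control. Rbm15 had 5.76 and 7.06 RPKM in the knockout, against 4.55 and 4.65 RPKM in the control, 1.39-fold higher (adjusted p = 0.0235). Rbm27, which with its paralog Rbm26 takes part in the nuclear decay of polyadenylated RNA, had 2.53 and 2.85 RPKM in the knockout, against 1.48 and 1.51 RPKM in the control, 1.80-fold higher (log2 fold change 0.56, SE 0.080, adjusted p = 0.00268). Rbm26 was 1.47-fold higher (adjusted p = 0.0195).

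The other 13 Rbm genes that rose were 1.23-fold to 2.34-fold higher, with adjusted p-values of 0.00229 to 0.0401, and their groups did not overlap. Rbm18 had the largest of these folds, 2.34, with 1.72 and 2.11 RPKM in the knockout, against 0.812 and 0.828 RPKM in the control. Rbm18, Rbm33 and Rbm34 reached 1 RPKM in the knockout libraries alone, and so passed the minimum through them. Spliceosome parts and splicing cofactors were among the smaller changes. Rbm22, which contacts the RNA core of the spliceosome, was 1.42-fold higher, Rbm39, a cofactor that works with the U2AF splicing factors, 1.41-fold, and Rbm25, a regulator of splice site choice, 1.31-fold. Rbm8a, the Y14 subunit of the exon junction complex, had 9.53 and 12.0 RPKM in the knockout, against 7.85 and 8.08 RPKM in the control, 1.35-fold higher (adjusted p = 0.0401). Rbm42 was 1.32-fold and Rbm45 1.44-fold higher. The neighbouring paralogs Rbm4 and Rbm4b, splicing regulators of similar sequence, were 1.45-fold and 1.23-fold higher. They and the adjacent Rbm14 lie within the span of the annotated read-through gene Gm21992, so their counts are uncertain. Rbm14, 1.19-fold higher in the knockout (adjusted p = 0.0533), was not called.

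Rbm44 and Rbm11 fell. Rbm44, a germ cell protein found at the intercellular bridges between spermatogenic cells, had 4.38 and 3.65 RPKM in the knockout, against 7.38 and 7.16 RPKM in the control, 1.81-fold lower (log2 fold change -0.72, SE 0.10, adjusted p = 0.00254). Rbm11, a splicing regulator known mainly from brain and testis, had 1.32 and 0.797 RPKM in the knockout, against 2.66 and 2.23 RPKM in the control, 2.30-fold lower (log2 fold change -0.75, SE 0.15, adjusted p = 0.00722). For both genes each knockout library lay below each control library. Knockout replicate 2, with the lowest value of Rbm11, is also the library with the lowest estimated depth, and the Rbm11 value there corresponds to about 38.2 steps of the table's smallest value. Rbm5, a splicing regulator needed in mouse spermatids, had 6.42 and 5.94 RPKM in the knockout, against 7.08 and 6.82 RPKM in the control. It was not called, with a log2 fold change of -0.15 and a 95% interval of -0.36 to 0.07. Its neighbour and paralog Rbm6, 1.31-fold higher in the knockout, was below the minimum for testing. Rbm17 (log2 fold change 0.19, adjusted p = 0.0589), Rbm28 (0.16, adjusted p = 0.122) and Rbm48 (-0.11, adjusted p = 0.319) were not called either.

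**Figure D2:**
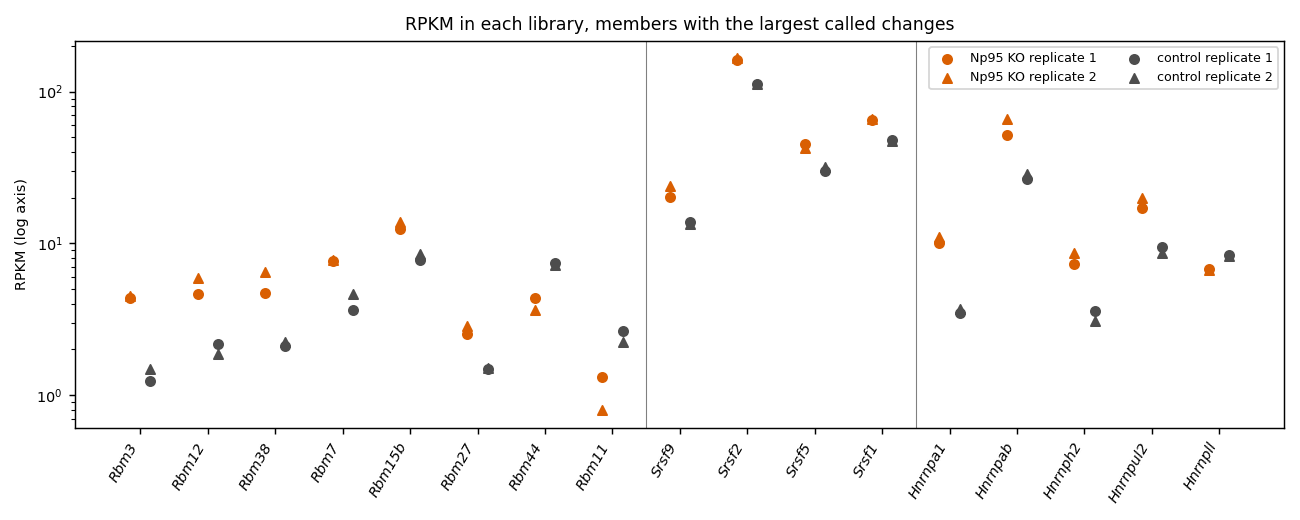
RPKM (log axis) of the 17 members with the largest called changes, with the 2 knockout libraries on the left of each gene and the 2 control libraries on the right, circles for replicate 1 and triangles for replicate 2. Rbm, Srsf and Hnrnp genes are separated by lines. The knockout points lie above the control points for 14 genes and below them for Rbm44, Rbm11 and Hnrnpll.

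Among the Srsf genes, which code for the SR proteins, 6 rose and none of the 10 tested fell, whereas with library medians made equal 1 rose and 2 fell. The largest rise was that of Srsf9, which had 20.1 and 24.0 RPKM in the knockout, against 13.8 and 13.4 RPKM in the control, 1.62-fold higher (log2 fold change 0.65, SE 0.12, adjusted p = 0.00530). Srsf1, the founding SR protein and a close relative of Srsf9, had 65.2 and 66.4 RPKM in the knockout, against 47.7 and 47.3 RPKM in the control, 1.39-fold higher (log2 fold change 0.46, SE 0.10, adjusted p = 0.0114). Replicates of each group lay close together for Srsf1. Srsf2, the nuclear speckle protein also called SC35, had 161 and 166 RPKM in the knockout, against 113 and 113 RPKM in the control, 1.45-fold higher (log2 fold change 0.53, SE 0.12, adjusted p = 0.0117). Srsf2 overlaps Mettl23 and Mfsd11 on the opposite strand. Mettl23 had 1.59 and 1.71 RPKM in the knockout, against 2.23 and 2.56 RPKM in the control, and Mfsd11 had 2.81 and 2.47 RPKM in the knockout, against 4.46 and 4.40 RPKM in the control, so both partners were lower where Srsf2 was higher.

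Srsf5, an SR protein with a pair of RNA recognition motifs, had 45.4 and 42.5 RPKM in the knockout, against 30.0 and 32.1 RPKM in the control, 1.42-fold higher (log2 fold change 0.49, SE 0.11, adjusted p = 0.00995). Its relatives Srsf6 and Srsf4 gave 1.26-fold (adjusted p = 0.0377) and 1.07-fold higher values (adjusted p = 0.402), and Srsf4 was not called. Srsf10, which acts as a splicing repressor when dephosphorylated, was 1.24-fold higher (adjusted p = 0.0318). Srsf3 and Srsf7, small SR proteins that also serve mRNA export, were not called. Srsf3 had 18.2 and 17.9 RPKM in the knockout, against 17.4 and 19.4 RPKM in the control, and Srsf7 had 28.8 and 26.3 RPKM in the knockout, against 29.4 and 31.4 RPKM in the control. The 95% interval of the log2 fold change was -0.28 to 0.23 for Srsf3 and -0.41 to 0.13 for Srsf7. Srsf11 was not called (log2 fold change -0.15, adjusted p = 0.176), and Srsf12, a relative of Srsf10, was below the minimum, with 0.181 and 0.137 RPKM in the knockout, against 0.347 and 0.263 RPKM in the control.

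Of the 20 Hnrnp genes, all of which were tested, the largest rises were those of Hnrnpa1, Hnrnpab, Hnrnph2 and Hnrnpul2. Hnrnpa1, an abundant nuclear protein that represses exon inclusion, had 10.1 and 11.1 RPKM in the knockout, against 3.48 and 3.70 RPKM in the control, 2.95-fold higher (log2 fold change 1.33, SE 0.089, adjusted p = 0.00136). Hnrnpa1 has many processed pseudogenes in the mouse genome, so its value depends on how reads with several matches were counted. Hnrnpab, which binds single-stranded nucleic acids and shuttles mRNA, had 51.4 and 66.4 RPKM in the knockout, against 26.5 and 28.5 RPKM in the control, 2.14-fold higher (log2 fold change 1.06, SE 0.15, adjusted p = 0.00281). It overlaps Phykpl on the opposite strand, which had 9.68 and 11.9 RPKM in the knockout, against 4.87 and 5.38 RPKM in the control, and reads of the pair cannot be told apart in these libraries. Hnrnph2, the X-linked member of the group that binds runs of G, had 7.28 and 8.63 RPKM in the knockout, against 3.56 and 3.09 RPKM in the control, 2.39-fold higher (log2 fold change 1.05, SE 0.11, adjusted p = 0.00155). Hnrnpul2, a relative of Hnrnpu with a role at DNA breaks, had 17.0 and 19.8 RPKM in the knockout, against 9.47 and 8.69 RPKM in the control, 2.03-fold higher (log2 fold change 0.94, SE 0.11, adjusted p = 0.00180). Hnrnpa1 did not lead the members by every measure. Rbm3 had the larger ratio of means and, with a pseudocount of 0.1, a log2 fold change of 1.64 against 1.53 for Hnrnpa1, and quantile normalization gave 1.71 for Hnrnpab against 1.37 for Hnrnpa1. In each of these 4 genes both knockout values exceeded both control values.

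The other 6 Hnrnp genes that rose were 1.22-fold to 1.68-fold higher, with adjusted p-values of 0.00324 to 0.0435. Hnrnpd, also called AUF1, and its relative Hnrnpdl bind AU-rich elements of mRNA and were 1.68-fold and 1.53-fold higher. Hnrnpk, which binds runs of C, was 1.22-fold higher (adjusted p = 0.0435), and Hnrnpul1 was 1.25-fold higher (adjusted p = 0.0353). The member that fell was Hnrnpll, a splicing regulator of the CD45 gene in lymphocytes, with 6.79 and 6.66 RPKM in the knockout, against 8.35 and 8.27 RPKM in the control, 1.24-fold lower (log2 fold change -0.27, SE 0.079, adjusted p = 0.0279). Its paralog Hnrnpl, which binds CA repeats, had 40.2 and 41.7 RPKM in the knockout, against 46.1 and 44.9 RPKM in the control, and was not called (adjusted p = 0.235). The scaffold protein gene Hnrnpu had 73.1 and 77.9 RPKM in the knockout, against 65.4 and 60.3 RPKM in the control, and was not called (adjusted p = 0.0955). Hnrnpc, Hnrnpm and Hnrnpr were not called, with log2 fold changes of 0.14, -0.05 and 0.16.

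Close relatives gave different folds within the Hnrnp family, although the differences between relatives were not tested. In the A group, Hnrnpa1 was 2.95-fold and Hnrnpa3 1.67-fold higher, while Hnrnpa0 (1.25-fold, adjusted p = 0.0996) and Hnrnpa2b1 (1.14-fold, adjusted p = 0.179) were not called. In the group that binds runs of G, Hnrnph2 was 2.39-fold and Hnrnph1 1.56-fold higher. Hnrnph3 and Hnrnpf, of the same group, were not called, with log2 fold changes of -0.03 (95% interval -0.27 to 0.20) and -0.16 (95% interval -0.38 to 0.06). Hnrnph1 and Hnrnph2 are close in sequence and can share reads.

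**Figure D3:**
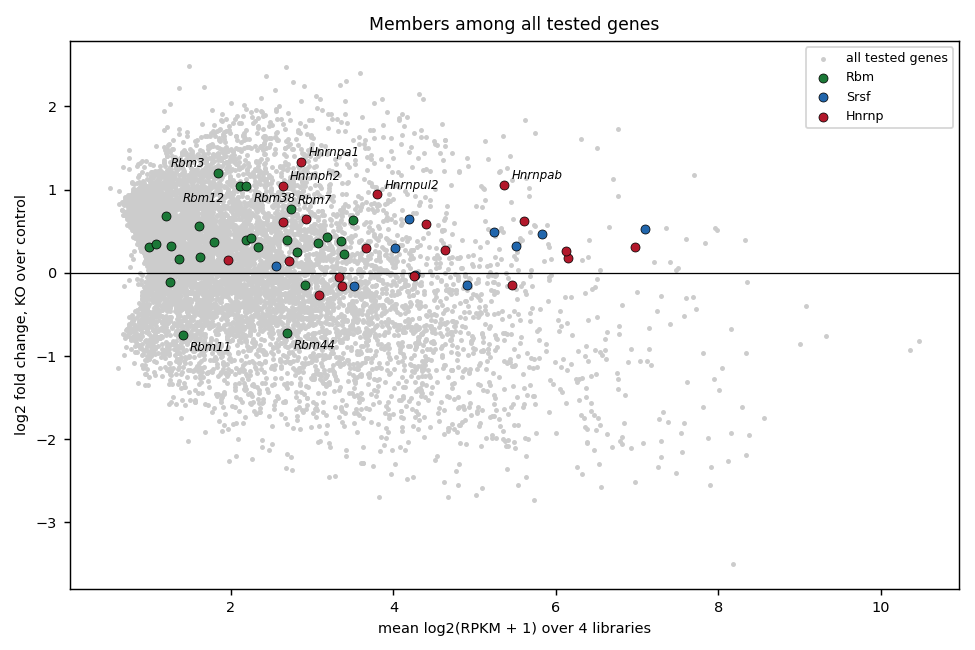
Log2 fold change (knockout over control) against mean log2(RPKM + 1) over the 4 libraries for the 9099 tested genes in grey, with members coloured by family. The members lie within the cloud of all genes, between -0.75 and 1.33. RPKM here is scaled by gene span, so places along the horizontal axis are not levels per transcript length.

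The X chromosome carried 4 members, and all had higher values in both knockout libraries than in either control library. Besides Rbm3 and Hnrnph2, these were Rbm10 and Rbm41, which were below the minimum for testing. Rbm10, a splicing regulator and paralog of Rbm5, had 0.403 and 0.422 RPKM in the knockout, against 0.0752 and 0.122 RPKM in the control. Rbm41 had 0.0391 and 0.0537 RPKM in the knockout, against 0.00709 and 0.00856 RPKM in the control. Of 1059 X-linked symbols listed, 265 were tested and 251 of these (94.7%) were called higher. In 258 of the 265 both knockout values lay above both control values, as in the members. The tested ones included 118 with less than 1 RPKM in each control library, which passed the minimum through the knockout alone and so had to differ. Without the X-linked members, 33 of 54 tested members rose and 3 fell. Over all 9099 tested genes, with the X-linked ones included, 43.3% were higher and 30.5% lower.

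Of the 9 members below the minimum, Rbm6, Rbm10, Rbm19, Rbm20, Rbm24, Rbm41, Rbm43, Rbm47 and Srsf12, a fit without the minimum called Rbm10, Rbm19, Rbm41 and Rbm43 higher and Srsf12 lower. In that fit 34.8% of 21208 genes were higher and 16.2% lower, 51% in all. Rbm19, a nucleolar protein of ribosome assembly, was 1.71-fold and Rbm43 3.51-fold higher. The Rbm43 values in control replicates 1 and 2 correspond to only about 4.6 and 27.1 steps of the table's smallest value, so its fold is uncertain. The muscle splicing regulators Rbm20 and Rbm24 and the RNA editing cofactor Rbm47 had at most 0.0380 RPKM in any library, and Rbm24 was listed at 0 in knockout replicate 2.

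The scaling between libraries decided many of the smaller changes. The deposited values gave a median log2 fold change of 0.14 over all tested genes, while scaling each library to the same RPKM sum gave 0.46, equal medians gave -0.05 and quantile normalization 0.01. With equal medians 8 of 26 Rbm genes were higher and 4 lower, 1 of 10 Srsf genes was higher and 2 lower, and 8 of 20 Hnrnp genes were higher and 3 lower, against 33.5% higher and 38.9% lower over all tested genes. The Srsf genes thus had more lower than higher calls in that scaling. With quantile normalization 14 Rbm, 8 Srsf and 15 Hnrnp genes were higher and 3 Rbm, 0 Srsf and 0 Hnrnp genes lower. Over all tested genes 34.7% were higher and 33.4% lower in that scaling. With an equal RPKM sum 22, 9 and 17 were higher and 2, 0 and 0 lower. There 60.5% of the 9345 tested genes were higher and 17.8% lower. Each scaling alone called 68.1% to 78.3% of all tested genes, and the share called the same way in all 4 was not computed. Called the same way under all 4 scalings were 17 members that rose and 2 that fell. These were Rbm3, Rbm7, Rbm12, Rbm15b, Rbm18, Rbm27, Rbm38, Rbm39, Srsf9, Hnrnpa1, Hnrnpa3, Hnrnpab, Hnrnpd, Hnrnpdl, Hnrnph1, Hnrnph2 and Hnrnpul2 among the rises and Rbm11 and Rbm44 among the falls. Rbm18 among these passed the minimum through the knockout alone, so its calls partly follow from the minimum. The calls of Srsf1, Srsf2 and Srsf5 ended with equal medians, with adjusted p of 0.0728, 0.0566 and 0.0597. Leaving out control replicate 1 (0.120, 0.137 and 0.119) or control replicate 2 (0.129, 0.135 and 0.0717) ended them as well. Under an equal RPKM sum Hnrnpll turned to a log2 fold change of 0.10 (adjusted p = 0.322), and its call ended with quantile normalization (0.0681) and without control replicate 1 (0.189) or 2 (0.171). In a fit of the 3468 genes at 5 RPKM or more in at least 2 libraries, 31.1% of all genes were higher and 47% lower, 78.1% in all, and 8 of 10 Rbm, 6 of 9 Srsf and 10 of 19 Hnrnp genes were higher and 1, 0 and 1 lower. The median over each family stayed above that of all tested genes in each of these scalings.

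**Figure D4:**
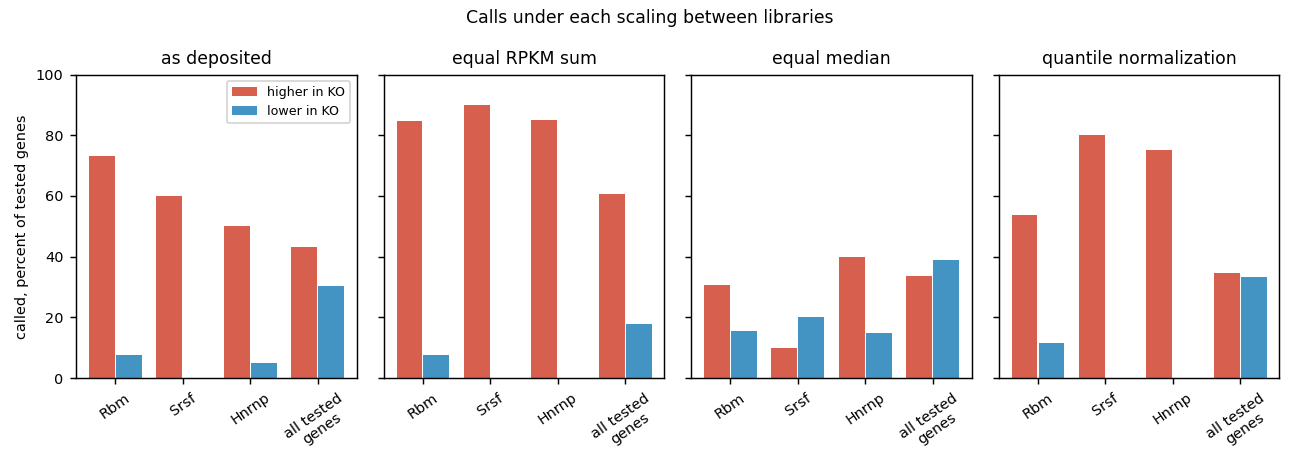
Percent of tested genes called higher (red) or lower (blue) in the knockout for the Rbm, Srsf and Hnrnp families and for all tested genes, under the deposited scaling and 3 others. With equal medians the Srsf bars show 10% higher and 20% lower. Under the other scalings shown, no Srsf gene was lower.

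Other genes of splicing and mRNA surveillance, listed from general knowledge, were set beside these families. Of 8 tested genes for SR protein kinases and import, 4 rose and 1 fell, with a median log2 fold change of 0.21. Clk1, a nuclear kinase of SR proteins, had 6.54 and 6.69 RPKM in the knockout, against 3.91 and 4.20 RPKM in the control, 1.63-fold higher. Srpk1, a mainly cytoplasmic SR protein kinase, had 6.16 and 5.16 RPKM in the knockout, against 9.42 and 8.89 RPKM in the control, 1.62-fold lower, a call lost when RPKM sums were made equal (adjusted p = 0.0743). The kinase gene Clk4 and the SR protein importer gene Tnpo3 were 1.38-fold and 1.33-fold higher, and neither was called with equal medians. That list had 1 higher and 2 lower with equal medians, and 1 and 1 with quantile normalization.

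Of 18 other SR-related and Rbmx-like genes 11 rose and 2 fell, with a median of 0.29, against 7 and 4 with equal medians. Srrm2, a large protein of nuclear speckles, had 29.4 and 33.5 RPKM in the knockout, against 15.9 and 14.4 RPKM in the control, 2.08-fold higher. The X-linked Rbmx and Rbmx2 were 4.61-fold and 3.65-fold higher, with control values below 1 RPKM. Both passed the minimum through the knockout alone, so their calls and the count of 11 partly follow from the minimum. Luc7l3, a U1-associated factor, was 1.64-fold higher. Of 26 other hnRNP-type and splicing regulators 14 rose and 3 fell, with a median of 0.29, against 12 and 7 with equal medians and 20 and 0 with equal RPKM sums. The paraspeckle protein gene Nono, on the X chromosome, was 3.68-fold higher, Syncrip, a relative of Hnrnpr, 2.53-fold, and Celf1 2.48-fold. Those 3 genes and Srrm2 were called in the same direction under all 4 scalings. Nono, with 0.643 and 0.731 RPKM in the control, passed the minimum through the knockout alone, so its calls partly follow from the minimum.

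Genes of the spliceosome core moved both ways. Of 43 tested, 12 rose, 12 fell and 19 were not called, with a median log2 fold change of 0.07. Of these 43, 2 passed the minimum through the knockout alone. Equal medians gave 6 rises and 16 falls, and equal RPKM sums 28 rises and 6 falls among 44 genes. The Sm protein gene Snrpf had 9.90 and 6.21 RPKM in the knockout, against 28.0 and 27.5 RPKM in the control, 3.44-fold lower, and Snrpd2 was 2.25-fold lower. Sf3a1, of the U2 particle, was 1.73-fold higher. Sf3b5, of the same particle, was 1.91-fold lower, while quantile normalization gave it a log2 fold change of 0.06. Of 11 genes of the exon junction complex and nonsense-mediated decay, 6 rose and 2 fell, with a median of 0.22, and 3 rose and 2 fell with equal medians. The X-linked Upf3b had 1.13 and 1.50 RPKM in the knockout, against 0.291 and 0.353 RPKM in the control, 4.08-fold higher. Its autosomal paralog Upf3a had 8.66 and 8.29 RPKM in the knockout, against 16.5 and 15.1 RPKM in the control, 1.87-fold lower. Both genes kept these directions and calls under all 4 scalings, but Upf3b passed the minimum through the knockout alone, so its calls partly follow from the minimum. The decay kinase gene Smg1 was 1.68-fold higher and the decay factor gene Smg5 1.44-fold lower, and the call of Smg5 was lost when RPKM sums were made equal (adjusted p = 0.326).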

How the data were processed

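Poly(A) RNA libraries were read as 50-bp pairs with a kit that does not mark strand, per the labels' protocols. The authors deposited RPKM values, 1 column per library, per the file headers, and the submitters' processing notes name Bowtie2 and mm9. The counting program is not given in the sources used here. Low values multiplied by gene span, introns included, fell within 0.05 of whole steps in 49.5% to 51.6% of cases, against 11.2% to 12.0% for exon length, so RPKM was scaled by span and levels of different genes are not compared. If 1 step is 1 read or pair, the depths were about 11080000 and 4800000 in knockout replicates 1 and 2, and 5810000 and 12810000 in control replicates 1 and 2. Whole reads were not recovered for the other values, so no count test was run.

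Of 24444 rows, 27 with a date as symbol and 29 repeats (keeping the highest mean) were left out. Genes at 1 RPKM or more in at least 2 libraries were tested on log2(RPKM + 1) by limma 3.58.1 in R 4.3.3, with a mean-variance trend and two-sided p-values adjusted over all 9099 genes by the Benjamini-Hochberg method. With 2 libraries against 2, the smallest p of an exact permutation test is 0.333. Members, lists and rules were chosen with earlier results of these data known. Per family, called members with separated groups and a mean of 2 RPKM or more were ranked by log2 fold change, up to 6 (Rbm) or 4 (Srsf, Hnrnp) per direction. X-linked members above the minimum and up to 4 called genes per other list were added, of which 1 is not reported here, and other members are named by role, chosen after their values were seen. Chromosomes come from RefSeq (GRCm38.p6), matched for all 65 members, and overlaps from GENCODE M21. The fit was tested on simulated data. Alternatives were pseudocounts of 0.1 and 0.5, no minimum, 5 RPKM, 3 scalings, leaving out each library, a replicate block, no trend, summed repeats and X-linked members left out.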

Additional observations from a re-analysis of the deposited data

How the results depend on the processing

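Counts are given as higher and lower in the knockout. Without the minimum 7370 of all genes were higher, 1 Srsf gene was lower, and family medians minus that of all tested genes were 0.30 (Rbm), 0.26 (Srsf) and 0.25 (Hnrnp). Among genes at 5 RPKM or more 1080 were higher and 1629 lower, with 8 higher and 1 lower Rbm genes, and those medians were 0.59, 0.55 and 0.52. With an equal RPKM sum 1663 of all genes were lower, 17 Hnrnp genes were higher and 0 lower, the Srsf median was 0.25, and Hnrnpll turned to 0.10. With equal medians 8 Rbm genes were higher and 4 lower, 1 Srsf gene was higher and 2 lower, and 3 Hnrnp genes were lower. With quantile normalization 0 Hnrnp genes were lower and the Srsf and Hnrnp medians were 0.76 and 0.68. With a pseudocount of 0.1 the Rbm median was 0.30. These medians are 0.22 (Rbm), 0.17 (Srsf) and 0.14 (Hnrnp) in the results above. The cause of these shifts was not tested.

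Leaving out 1 library at a time gave 3034 to 3949 genes higher and 2085 to 2902 lower, with 7 to 20 Rbm, 1 to 6 Srsf and 7 to 12 Hnrnp genes higher and 2, 0 and 0 to 1 lower. The lowest counts came without control replicate 1 (7 Rbm, 1 Srsf) and without control replicate 2 (8 Rbm, 1 Srsf, 7 Hnrnp). The medians ran from 0.15 to 0.25 (Rbm), 0.13 to 0.21 (Srsf) and 0.10 to 0.19 (Hnrnp). A lone library of a group is then assumed to vary like the other group. With the replicate number as a block, 18 Rbm, 4 Srsf and 8 Hnrnp genes were higher and 2, 0 and 1 lower. In that fit 72.4% of all tested genes were called in either direction. The numbers are not shown to pair the samples (correlation of same-numbered deviations 0.109, 2 pairs). Of the 17 named members, each kept direction and call in the other fits not given in the results above, apart from the fit at 5 RPKM or more. That fit tested 12 of them, which kept direction and call. It did not test Rbm3, Rbm11, Rbm12, Rbm27 and Rbm38. Values under about 50 steps, as for Rbm11 in knockout replicate 2 and Rbm3 in control replicate 1 (about 49.4), carry the most counting error. Members below the minimum could be far lower, such as Rbm41 at about 4.5 and 12.0 steps in the control libraries.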
